A study of Mus musculus with 186 samples.

Results

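The genes of the mitochondrial respiratory chain were examined in single mammary epithelial cells of adult mice. A gene was taken when its symbol began with mt-, or when it named a subunit of complex I (Nduf genes, which also brings in the Ndufaf assembly factors), complex II (Sdha to Sdhd), complex III (Uqcr genes), complex IV (Cox4 to Cox8 genes with a letter a to c) or ATP synthase (Atp5 genes). Pseudogenes were left out. This gave 108 of the 27179 genes listed, 15 encoded in the mitochondrial genome and 93 in the nucleus. Of these, 102 passed the gene filter (at least 1 CPM, reads of a gene per 1000000 reads, in 3 cells or more): all 15 mitochondrial and 87 nuclear members. The 6 others are Ndufa4l2, Cox7b2, Cox8c, Uqcr11, Cox6a2 and Cox8b, which had from 0 to 290 reads over all cells.

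The respiratory chain is a row of protein complexes in the inner mitochondrial membrane that pass electrons from nutrients to oxygen and pump protons, and ATP synthase (complex V) uses the proton gradient to make ATP. The mitochondrial genome encodes a few core subunits of complexes I, III, IV and V and both rRNAs of the mitochondrial ribosome, while complex II and all other subunits come from nuclear genes. Mammary ducts have an outer basal layer of contractile cells and an inner luminal layer, and luminal cells make milk in lactation.

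The cells came from adult FVB/NJ mice with no treatment, 8 mice in all, and were sorted as basal (96 cells) or luminal (90 cells) before capture on a Fluidigm C1 chip, which makes cDNA from polyadenylated RNA in a separate chamber for each cell. The labels also name the PCR plate. Plate A held 60 basal cells, plate B 36 basal and 24 luminal cells and plate C 66 luminal cells, and both populations thus met on plate B only. Which mouse a cell came from is not labelled, so each population is 1 sample, no test was made, and a difference was read against the gap between the 2 plates of a population.

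Total reads per cell ranged from 3105 to 3784407. The study's thresholds on depth and detected genes left 72 of 96 basal cells (A 50, B 22) and 76 of 90 luminal cells (B 24, C 52), with a median of 1315070 and 1680540 reads. Values below are of these passing cells unless stated. The sorts carried their markers: reads of at least 4 of 7 basal markers were present in 70 of 72 basal and 8 of 76 luminal cells, and of at least 4 of 7 luminal markers in 76 of 76 luminal and 43 of 72 basal cells. By level, the basal markers had a median summed CPM of 9206 in basal and 1.72 in luminal cells. The luminal markers had 536 in basal and 12797 in luminal cells, and single cells overlapped for both sets. At least 4 of the markers of another cell type (endothelial, immune, fibroblast, red cell or adipocyte) were present in 9 basal and 18 luminal cells. No cell had 4 immune, red cell or adipocyte markers. Endothelial markers reached 4 in 6 basal and 5 luminal cells, and fibroblast markers in 4 and 17.

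Several members cannot be counted cleanly. The mitochondrial genes mt-Atp8 and mt-Atp6 encode subunits of ATP synthase on 1 RNA and share 43 bases, MT:7927-7969 in the genome build GRCm38, which are 21.1% of mt-Atp8. They are shown because a read in this stretch belongs to both genes. The lines give the last 73 bases of mt-Atp8 (MT:7897-7969) and the first 73 of mt-Atp6 (MT:7927-7999), plus strand, from GENCODE, with the shared stretch in capitals.
mt-Atp8: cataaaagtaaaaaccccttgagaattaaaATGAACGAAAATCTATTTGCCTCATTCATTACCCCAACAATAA
mt-Atp6: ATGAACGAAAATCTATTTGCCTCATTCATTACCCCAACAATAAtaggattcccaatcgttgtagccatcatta
The nucleus also holds copies of mitochondrial DNA. Of all windows of 50 bases, 100% of mt-Co2, 99.9% of mt-Co3, 99.5% of mt-Atp6, 98.8% of mt-Nd4l, 98.0% of mt-Nd3, 62.2% of mt-Nd4 and 51.1% of mt-Co1 also occur in a transcript of a nuclear gene or pseudogene. For mt-Nd2 the share is 8.19%, for mt-Nd5 7.61% and for mt-Rnr2 1.04%, and for mt-Rnr1, mt-Nd1, mt-Atp8, mt-Nd6 and mt-Cytb it is 0. How the counting treated reads with several matches is not given in the sources used here. The gene mt-Nd6 is the sole mitochondrial member on the light strand, and the library kit does not mark strand, so its reads and antisense reads cannot be told apart.

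Mitochondrial members were the most abundant. On the scale of CPM per kb of gene, with mitochondrial and ribosomal protein reads left out of the library total, the median level of the 13 mitochondrial mRNAs was 4045 in basal and 4881 in luminal cells, against 132 and 139 for the 93 nuclear members. The highest were mt-Co3, a core subunit of complex IV (11822 basal, 21003 luminal), mt-Cytb, the core of complex III (13273 and 18444), and mt-Nd1, a membrane subunit of complex I (12883 and 17285), and their order was not the same in both populations. The highest nuclear member was Cox6a1, a complex IV subunit, at 798 and 1274. Of the mitochondrial members only mt-Nd3 (773 and 897) and mt-Nd4l (206 and 271) were below it in both populations. All 15 mitochondrial members were higher in the luminal sum, but mt-Nd3 was not with TMM (log2 ratio -0.01) or median-of-ratios factors (-0.04), and with the mean of CPM per cell in place of the sum mt-Nd1, mt-Co2, mt-Atp8, mt-Atp6, mt-Nd3 and mt-Cytb were higher in basal cells (log2 ratios from -0.75 to -0.08). The ratio of mt-Rnr2, the large rRNA, was the widest, and it was higher in luminal cells under each of these settings. In a mean of CPM per cell, single cells can weigh heavily. Basal cells 17 and 54 had 4932721 and 2073004 mitochondrial CPM (basal median 66219), and the highest luminal cell had 3398540 (luminal median 81246). The means without such cells are not given here.

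**Figure D1:**
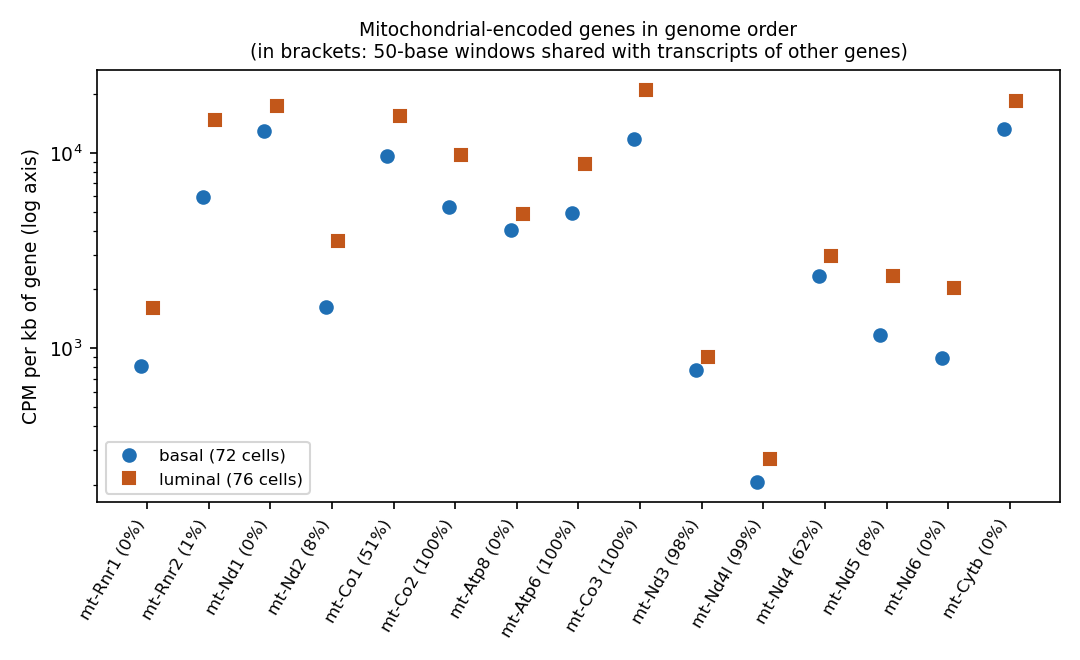
Level of the 15 mitochondrial members in genome order, in CPM per kb of gene on a log axis, for the summed 72 basal cells (circles) and 76 luminal cells (squares). The bracket after each name gives the share of its 50-base windows found in transcripts of other genes, and the luminal sum is above the basal sum at every gene, which for mt-Nd3 is not so with TMM or median-of-ratios factors and for 6 genes not with the mean of CPM per cell.

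Among passing cells, the share of a cell's reads taken by mitochondrial genes had a higher median in luminal cells. The size of the difference depended on the plates compared. The thresholds count reads without mitochondrial genes, so they act on this share. On basal plate A the share spanned 3.27 to 82.9% (median 6.01%), and on basal plate B 2.66 to 19.4% (median 4.88%). In luminal cells it spanned 3.23 to 75.5% (median 8.63%) on plate B and 0.197 to 55.6% (median 6.70%) on plate C. The ranges overlap in all 4 groups. The luminal median was 3.75 points above the basal one on plate B and 0.696 points above it for plate C against plate A, while the plates of a population differed by 1.12 points in basal and 1.93 points in luminal cells. The plate B difference exceeds both of these gaps, and that of plate C against A is below both. The difference between population medians, 1.18 points (7.16 against 5.98%), is above the basal and below the luminal gap. On plate B, 19 of 24 luminal cells were above the basal median and 3 of 22 basal cells above the luminal median, and for plate C against A these counts were 31 of 52 and 20 of 50. Over all cells, passing or not, the medians were 6.13 and 6.82% on basal plates A and B. On luminal plates B and C they were 8.63 and 7.73%. The plate B difference was then smaller and that of plate C against A larger than among passing cells.

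Among passing cells, more luminal than basal cells were rich in mitochondrial reads. The share was above 10% in 25 of 76 luminal cells (32.9%) and in 8 of 72 basal cells (11.1%), and cells are not replicates of a population. Above 50% were 3 luminal and 2 basal cells: luminal cells 13, 23 and 86 and basal cells 17 and 54. Luminal cell 13 had the most reads among them, 2811486, of which 75.5% were mitochondrial. It moved the ratio of 13 of the 15 mitochondrial members more than any other cell did, all but mt-Nd3 and mt-Nd4l. At the other end, luminal cell 89 had 0.197% mitochondrial reads but 23419 reads of nuclear members. Cells below the thresholds had higher median shares, 7.91% on plate A, 47.2% on plate B (basal) and 22.0% on plate C. This is partly set by the thresholds, which count reads without mitochondrial genes. With mitochondrial and ribosomal protein reads kept, 80 basal and 77 luminal cells would pass. Of the cells below, 17 of 24 basal and 12 of 14 luminal cells were above 10%. Above 50% were 9 basal and 3 luminal cells of those below.

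**Figure D2:**
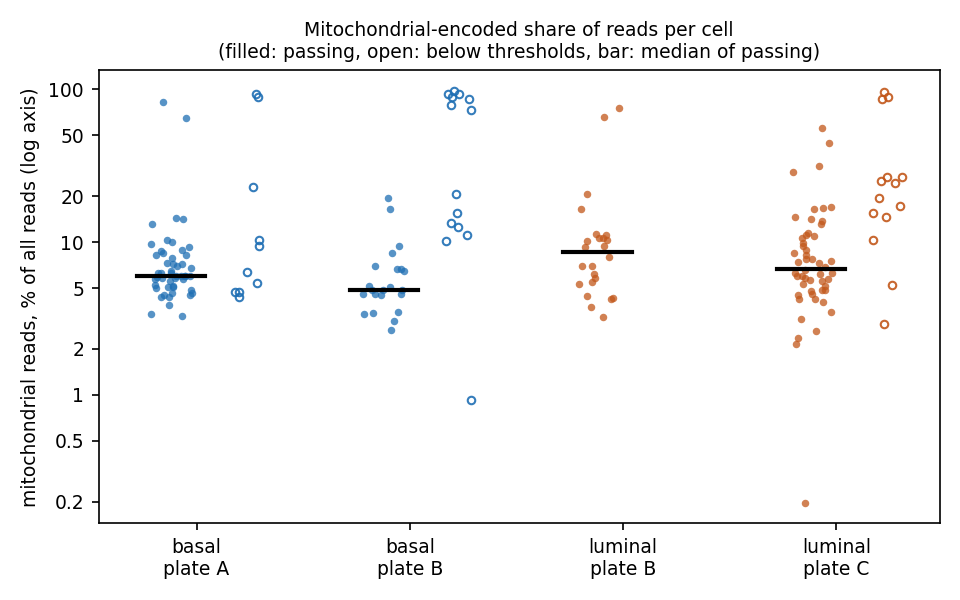
Mitochondrial reads as a percent of all reads of a cell, on a log axis, by population and plate. Filled points are the 148 passing cells, open points the 38 cells below the thresholds, and bars the medians of passing cells (6.01, 4.88, 8.63 and 6.70%).

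Within the mitochondrial reads, the rRNA genes took a larger part in luminal cells on either plate pairing. The cDNA was made from polyadenylated RNA, so these are shares of reads and do not measure rRNA content. Per cell, mt-Rnr1 and mt-Rnr2 together made up 5.90 to 49.8% of mitochondrial reads on basal plate A (median 13.6%) and 5.78 to 44.5% on basal plate B (median 11.8%). In luminal cells they made up 12.6 to 41.2% on plate B (median 21.4%) and 6.85 to 46.7% on plate C (median 21.1%). On plate B, 24 of 24 luminal cells were above the basal median and 1 of 22 basal cells was above the luminal median. For plate C against plate A these counts were 41 of 52 and 4 of 50. The difference between population medians, 7.90 points (21.2 against 13.3%), exceeds the gap between plates, which was 1.88 points in basal and 0.322 points in luminal cells, although single cells overlap.

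**Figure D3:**
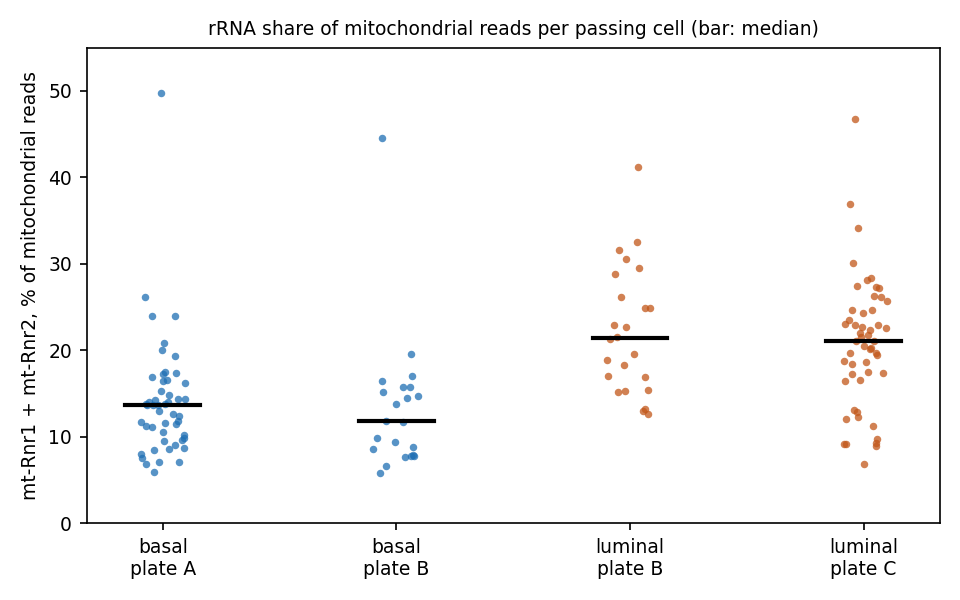
Reads of mt-Rnr1 and mt-Rnr2 as a percent of the mitochondrial reads of each passing cell, by population and plate, with the median as a bar. Both luminal medians (21.4 and 21.1%) are above both basal medians (13.6 and 11.8%).

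The difference came mainly with mt-Rnr2. Its median share of mitochondrial reads was 12.1% on basal plate A, 11.3% on basal plate B, 20.3% on luminal plate B and 19.4% on luminal plate C. The small rRNA, mt-Rnr1, had a share near 1% in each group (1.09, 0.734, 1.13 and 1.35%). It too was higher in luminal cells on both pairings, by 0.391 points on plate B and 0.260 points for plate C against A. The mRNA share that was lower in luminal cells on both pairings by the most was that of mt-Cytb, at 19.1 and 19.9% on the basal plates and 16.7 and 15.8% on the luminal plates. Shares of mt-Nd4 and mt-Co3 were also lower, and of mt-Nd2 higher, on both pairings. The share of mt-Co1, a core subunit of complex IV, followed no population: it was 15.9% on basal plate A, 24.1% on basal plate B, 15.7% on luminal plate B and 18.1% on luminal plate C. Because these are shares of a whole, a higher rRNA share lowers the others. Across cells of a group, the rRNA share and the mitochondrial CPM had a Spearman correlation of -0.49 in the 50 cells of basal plate A, 0.29 in the 22 of basal plate B, -0.04 in the 24 of luminal plate B and 0.03 in the 52 of luminal plate C. Both measures share the mitochondrial reads.

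Nuclear members were lower on basal plate B than in the other 3 groups. The summed CPM of the 93 nuclear members spanned 2634 to 23301 (median 14837) on basal plate A and 4349 to 13608 (median 8941) on basal plate B. Luminal cells spanned 4847 to 21510 (median 14297) on plate B and 399.8 to 22603 (median 13708) on plate C. On plate B, 22 of 24 luminal cells were above the basal median and 0 of 22 basal cells were above the luminal median, a ratio of medians of 1.60. For plate C against plate A the ratio was 0.924, so the direction was not the same. Basal plate A over basal plate B had a ratio of 1.66, wider than either.

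Basal plate B had the lowest median of the 4 groups in each complex. The median nuclear CPM of complex I was 5248 and 2702 on basal plates A and B and 4566 and 5210 on luminal plates B and C. For complex V it was 4933, 2627, 4508 and 4136, and for complex IV 2442, 1015, 2584 and 2271. Complex II, made of nuclear genes alone, had the widest gap, at 570, 40.3, 609 and 509 CPM, and complex III had 1224, 667, 1414 and 1387 CPM. Other measures moved with plate B of the basal cells. At an equal depth of 50000 reads its cells had a median of 1568.5 genes detected, against 2902, 3195 and 3434.5 in the other groups, and the share of cytosolic ribosomal protein reads was 1.32% against 2.37, 2.11 and 2.08%. Their part in the lower nuclear level was not tested.

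**Figure D4:**
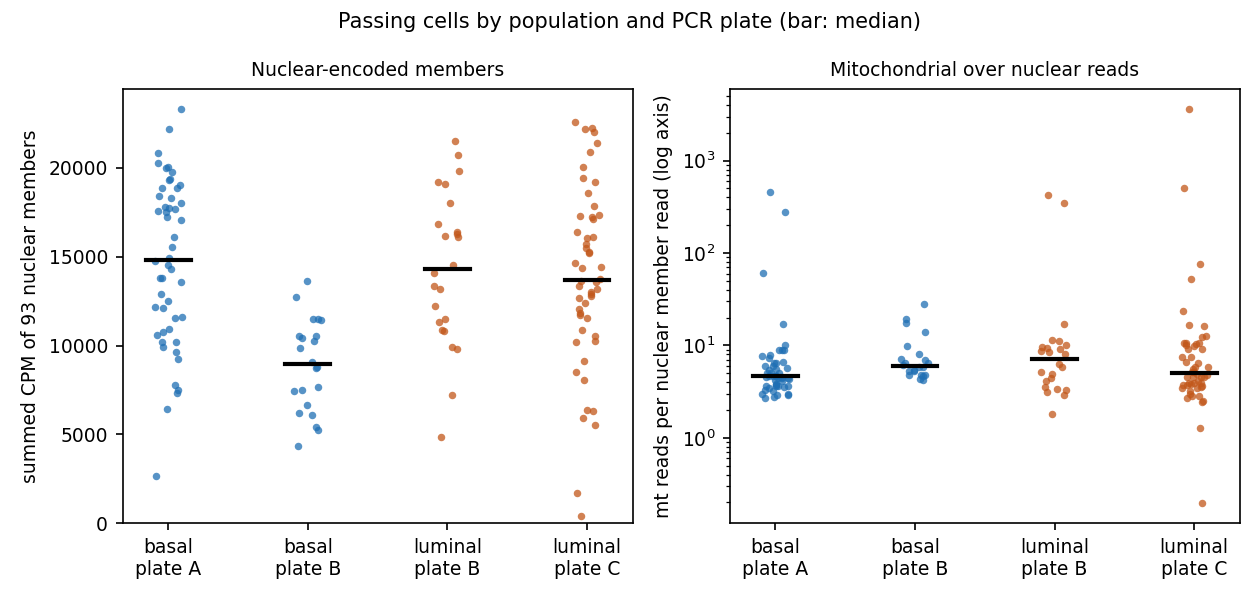
Passing cells by population and plate, with medians as bars. The left panel gives the summed CPM of the 93 nuclear members, where basal plate B (median 8941) is below the other groups, and the right panel gives mitochondrial reads per read of a nuclear member on a log axis, with medians of 4.65, 5.98, 7.17 and 5.04.

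Mitochondrial reads per nuclear member read, a ratio that does not depend on the library total, had medians of 4.65 on basal plate A, 5.98 on basal plate B, 7.17 on luminal plate B and 5.04 on luminal plate C. The population medians were 5.03 in basal and 5.41 in luminal cells, closer than the plates of either population. Cells ranged from 0.195 (luminal cell 89) to 3651 (luminal cell 86). Mitochondrial and nuclear CPM of a cell went together little: Spearman correlations were 0.14, 0.42, -0.13 and -0.15 in the order above, over the same 50, 22, 24 and 52 cells and with the same library total below both measures. Nuclear CPM and the ribosomal protein share had correlations of 0.58, 0.55, 0.40 and 0.60 in the same order, again with a shared library. With each cell thinned to 50000 reads, a median of 60 nuclear members was detected on basal plate A, 32.5 on basal plate B, 64 on luminal plate B and 66 on luminal plate C.

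Few nuclear members were far apart between the summed populations. A sum cannot tell apart fewer cells with a gene from less of its RNA per cell. With 1 CPM added to each, 9 of the 87 nuclear members had a luminal over basal log2 ratio of at least 1 (28.4% of all 14773 genes) and 2 had a ratio of -1 or less (18.3%). Together these are 12.6%, against 46.6% of all genes and 42.8% of genes with at least 50 CPM in either population. The median log2 ratio was 0.23 over nuclear members and 0.18 over all genes. It was 0.01 with TMM scaling factors and -0.02 with median-of-ratios factors, so it has no direction that holds under each scaling. Of the 15 mitochondrial members, 4 were higher in luminal cells by that size: mt-Rnr2 (1.32), mt-Nd6 (1.18), mt-Nd2 (1.12) and mt-Nd5 (1.01). This count was 1 with TMM or median-of-ratios factors and 2 with no filter on cells. The share of all genes under these settings is not given here. The median of the 13 mitochondrial mRNAs was 0.67, and 0.42 without luminal cell 13.

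The plates gave different counts. On plate B alone, 45 nuclear members were higher and 2 lower in luminal cells by the fold (54.0%), where 41.4% of all genes were higher and 17.2% lower (58.7%). The median log2 ratio there was 1.02, and 0.48 over all genes, and 14 of 15 mitochondrial members were past the fold. For luminal plate C over basal plate A, 7 were higher and 5 lower (13.8%), where 27.4% of all genes were higher and 20.1% lower (47.5%), with a median of -0.12 over the members, and 1 of 15 mitochondrial members was past the fold. Between the basal plates, A over B, 47 were higher and 1 lower (55.2%), where 41.7% of all genes were higher and 13.6% lower (55.2%), with a median of 1.06 over the members. Between the luminal plates, B over C, 4 were higher and 2 lower (6.90%), where 15.4% of all genes were higher and 24.6% lower (39.9%), with a median of 0.03 over the members. The plate pairings share no cell, and nuclear members past the fold in the same direction on both were 7 of 87 (8.05%, against 21.9% of all genes): Atp5d, Uqcrfs1, Ndufs3, Ndufaf1, Cox7a1 and Ndufaf3 higher in luminal cells (15.4% of all genes were) and Ndufa11 lower (6.55%). Ndufaf1 and Cox7a1 had no reads on basal plate B, so their plate B ratios depend on the CPM added. On luminal plate B Cox7a1 had 46 reads (1.25 CPM) and Ndufaf1 474 (12.9 CPM).

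**Figure D5:**
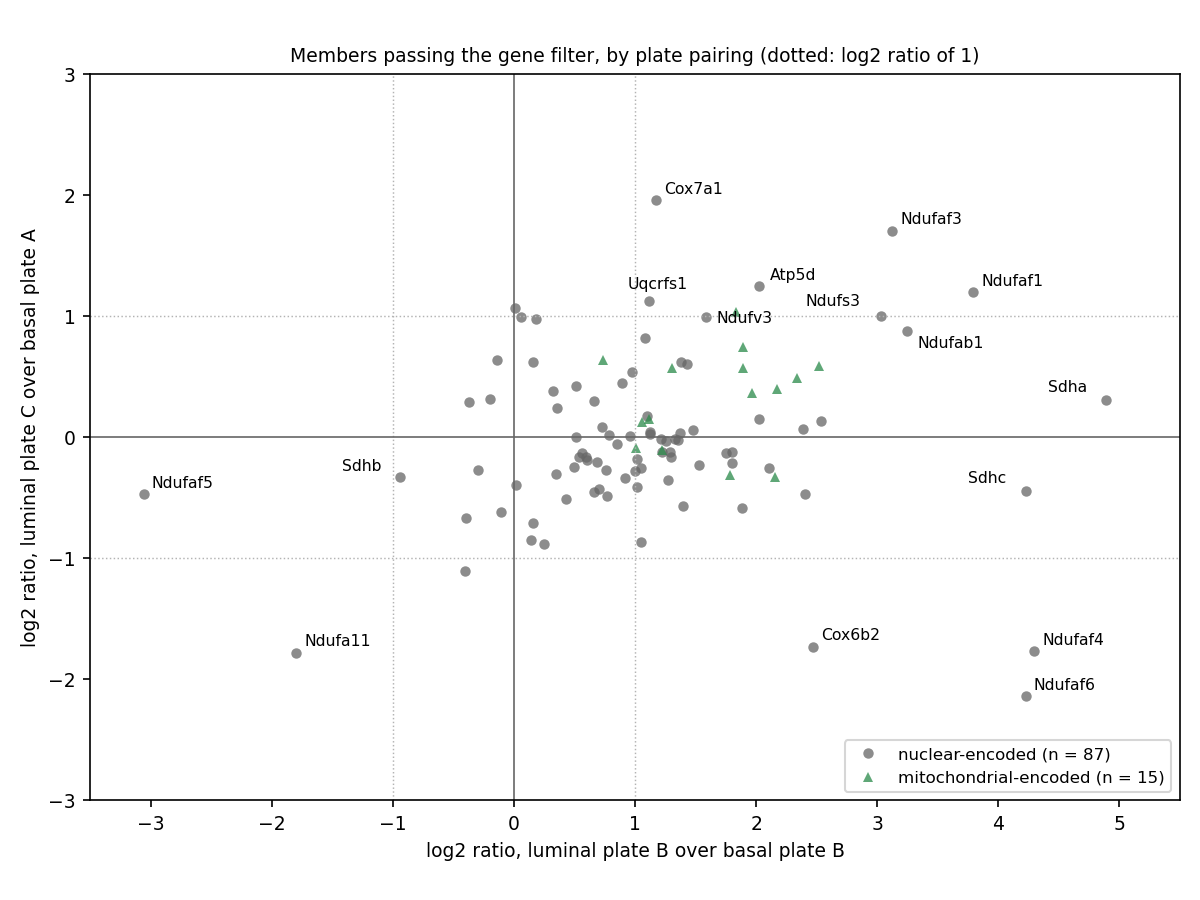
Log2 ratio of luminal over basal for the 102 members that passed the gene filter, on plate B (horizontal) and for luminal plate C over basal plate A (vertical). Circles are nuclear and triangles mitochondrial members, dotted lines mark a log2 ratio of 1 in size, and most points lie right of 0 and around 0 vertically.

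Ndufa11, an accessory subunit of the membrane arm of complex I (chr17:56717762-56724248), was the nuclear member with the largest basal excess and the only one past the fold in this direction on both pairings. Its CPM per cell spanned 0 to 7993 (median 525) on basal plate A and 0 to 5262 (median 238) on basal plate B, against 0 to 421 (median 135) on luminal plate B and 0 to 508 (median 155) on luminal plate C. The basal medians were both above the luminal ones, with overlap, and the highest cells were basal. The summed level was 614 CPM (95% Poisson interval 608 to 619, counting error only) in the basal sum and 178 CPM (175 to 180) in the luminal sum, a log2 ratio of -1.78, and -1.62 without basal cell 84. The gene model used for counting is 2661 bases long where the longest coding transcript in GENCODE has 918, and 5.62% of its windows also lie in Vmac or in Ndufa11b. The part of these in the counts was not tested.

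Among subunits higher in luminal cells, Atp5d and Ndufs3 held the fold on both pairings. Atp5d, the delta subunit of the ATP synthase stalk (chr10:80138698-80145828), had summed levels of 45.9 and 40.6 CPM on basal plates A and B and 168 and 111 CPM on luminal plates B and C, with reads in 45 of 72 basal and 66 of 76 luminal cells. Its median per cell was 9.19 and 1.69 CPM on the basal plates and 157 and 79.1 CPM on the luminal plates, and each group held cells at 0. Its log2 ratio was 1.53, 2.03 on plate B and 1.25 for plate C over A. Ndufs3, an iron-sulphur arm subunit of complex I (chr2:90894627-90904721), had 24.9 and 5.75 CPM on the basal plates and 54.1 and 50.8 CPM on the luminal plates, a log2 ratio of 1.44. It was detected in 31 basal and 58 luminal cells. The lower basal value was again on plate B, and 39.7% of its windows occur in transcripts of other genes.

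Uqcrfs1, the Rieske iron-sulphur protein of complex III (chr13:30540312-30545316), also passed on both pairings (1.11 and 1.13), but its levels differed as much within a population: 49.3 and 148 CPM on basal plates A and B, and 321 and 109 CPM on luminal plates B and C. Luminal plate C was thus below basal plate B. Sdha, the flavoprotein of complex II that also works in the citric acid cycle (chr13:74322255-74350240), had 125 and 8.75 CPM on basal plates A and B and 289 and 154 CPM on luminal plates B and C. Its log2 ratio of 1.19 over all plates rests on plate B (4.89), since plate C over A gave 0.31. Ndufv3, an accessory subunit of the complex I flavoprotein part, had a log2 ratio of 1.13 over all plates, 1.59 on plate B and 0.99 for plate C over A. With TMM or median-of-ratios factors, Sdha, Ndufv3 and Uqcrfs1 were below a log2 ratio of 1.

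Ndufab1, the mitochondrial acyl carrier protein that is also part of complex I, was low throughout, at 5.42 and 0.750 CPM on the basal plates and 15.6 and 10.8 CPM on the luminal plates, with a log2 ratio of 1.45, and 2.30 without basal cell 14. Of the assembly factors of complex I, which help build the complex and are not part of it, Ndufaf3 was detected in 12 of 72 basal and 39 of 76 luminal cells. Its levels were 11.6 and 5.53 CPM on the basal plates and 55.9 and 40.1 CPM on the luminal plates, a log2 ratio of 2.13, and 1.79 without luminal cell 17. Ndufaf1 was past the fold on both pairings too, with reads in 2 basal and 15 luminal cells (1.43 and 8.35 CPM) and none on basal plate B. Other factors were carried by few cells and took opposite directions: Ndufaf4 had 85.8 and 2.25 CPM on the basal plates and 62.7 and 24.5 CPM on the luminal plates, and Ndufaf6 had 5.35, 0, 17.7 and 0.44 CPM. Ndufaf1, Ndufaf4 and Ndufaf6 were chosen for mention after their values were seen.

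The other complex II genes varied by plate. Sdhc, a membrane anchor of the complex, had 163 CPM on basal plate A and 7.43 on basal plate B, against 157 and 119 CPM on luminal plates B and C. Sdhb, its iron-sulphur subunit, went the other way, with 344 and 504 CPM on the basal and 262 and 274 CPM on the luminal plates. The median Sdhb level per cell on basal plate B was nonetheless 10.9 CPM and the highest 3415, so the sum there rests on few cells.

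The most abundant subunits were close in the populations. Cox6a1 of complex IV had 456 and 364 CPM on the basal plates and 716 and 662 CPM on the luminal plates, a log2 ratio of 0.67, and it was detected in all 76 luminal and 65 of 72 basal cells. Ndufa4, now counted to complex IV, had log2 ratios of 0.00 over all plates, 1.02 on plate B and -0.41 for plate C over A. The c-ring gene Atp5g3 had 0.11, the epsilon subunit gene Atp5e -0.60 and the stalk gene Atp5o -0.48. In complex III, Uqcr10 had 0.26, Uqcrb 0.56 and Uqcrh -0.27, and in complex I Ndufb8 had 0.24, Ndufb9 0.29 and Ndufa1 -0.58. None of these was past the fold over all plates.

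For subunits with tissue-type copies, the widely expressed copy had the higher level per kb in each pair and population. Cox6a2 and Cox8b, the heart and muscle copies, had 0 reads in every cell, while Cox6a1 was high and Cox8a had 171 and 313 CPM in basal and luminal cells. Cox6b1 had 248 and 254 CPM. Cox6b2, known from testis, had 14.3 CPM on basal plate A, 0 on basal plate B, 4.53 on luminal plate B and 3.61 on luminal plate C. Against the limit of 3 reads on basal plate B, luminal plate B was at least 42.3-fold higher, and basal plate A at least 133-fold higher, so the direction between populations depends on the plate. Cox7a1, known from muscle and brown fat, was found in 3 basal and 18 luminal cells (0.808 and 5.55 CPM), where Cox7a2 had 40.0 and 36.2 CPM. Ndufa4l2 had 290 reads, all in 3 luminal cells of plate C, mostly in luminal cell 25. Of the c-ring genes, which encode the same mature peptide, Atp5g3 had 406 and 438 CPM, Atp5g1 130 and 105 CPM, and Atp5g2 13.2 and 14.3 CPM. For Atp5g2 38.3% of windows are shared with other transcripts.

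Some low values may be a matter of counting. Uqcr11, a subunit of complex III, had 3 reads in all 186 cells and Ndufs5 of complex I had 608, while the rows of 5 excluded pseudogenes had up to 21538 reads. Ndufb4c has all of its windows in common with Ndufb4 and other copies, and 84.8% of the windows of Atp5l are shared.

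Partners of the chain that the symbol rule does not take are given next to the members. Cox4i1, a nuclear subunit of complex IV, had 724 and 1011 CPM in the basal and luminal sums (log2 ratio 0.48). Cyc1, a cytochrome of complex III, had 72.7 and 102 CPM (0.49), and Cycs, cytochrome c, 136 and 209 CPM (0.61). Over all plates, 28.4% of all genes were higher and 18.3% lower by the fold in luminal cells, with a median of 0.18, and the lists below are set beside these. The all-gene medians of the pairings were 0.48 on plate B and 0.09 for plate C over A. Of 17 such partners, 2 were higher and 3 lower, with a median of 0.48, and the medians of the pairings were 0.93 and -0.03. Among partners with at least 10 CPM in the higher population and the same direction on plate B, the limits used for each list here, the widest were Dhodh, the pyrimidine synthesis enzyme that feeds electrons to the chain (2.15 and 31.1 CPM), and Etfa, which carries electrons from fatty acid oxidation (52.1 and 136 CPM, log2 ratios of 1.64 and 1.26 on the pairings).

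Lists of genes that build and express the chain had larger medians on plate B than for plate C over A. Of 29 assembly factors that passed the filter, 11 were higher and 2 lower in luminal cells over all plates (median 0.71), with medians of 1.84 on plate B and 0.37 for plate C over A. The widest within the limits were Sdhaf3 (7.18 and 45.0 CPM) and Ecsit (5.09 and 23.8 CPM). Of 22 genes of mitochondrial gene expression, 8 were higher and 3 lower (median 0.70), with medians of 2.02 and 0.45 on the pairings. The widest within the limits were Mtpap, the mitochondrial poly(A) polymerase (7.11 and 74.4 CPM, log2 ratios of 5.47 and 2.23 on the pairings), and Fastk (2.35 and 25.1 CPM). Of 78 mitochondrial ribosomal protein genes, 17 were higher and 5 lower (median 0.23), with medians of 1.12 and 0.22 on the pairings, and the widest within the limits were Mrps12 (1.81) and Mrps33 (1.66).

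Regulators of mitochondrial biogenesis had a median of -0.13, with 2 of 14 higher and 1 lower, and medians of 0.52 on plate B and -0.69 for plate C over A. Esrrb, an estrogen-related receptor, was found in 1 basal and 30 luminal cells, at 0.190 and 51.1 CPM, with 126 CPM on luminal plate B and 15.3 on plate C. Myc, a broad growth regulator, had 266 and 158 CPM in basal and luminal cells (-0.75, and -0.27 and -1.18 on the pairings). By plate it had 234 and 330 CPM on basal plates A and B and 274 and 102 on luminal plates B and C. Of 18 citric acid cycle genes, 4 were higher and 0 lower (median 0.48, and 1.51 and 0.37 on the pairings), led within the limits by Pcx, pyruvate carboxylase (0.262 and 14.3 CPM), and Dlat, a subunit of pyruvate dehydrogenase (12.1 and 48.4 CPM). Of 19 glycolysis genes, 4 were higher and 5 lower (median -0.47, and -0.12 and -0.19 on the pairings). The aldolase gene Aldoc had 15.1 and 296 CPM (log2 ratios of 7.77 and 3.79 on the pairings), and Eno3 1.39 and 17.1 CPM (5.74 and -1.21). Of 8 mitochondrial antioxidant genes, 1 was higher and 1 lower (median -0.11, and -1.13 and 0.45 on the pairings), with Prdx3 at 131 and 331 CPM and Gpx4 at 83.8 and 152 CPM.

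The promoters of the nuclear members were searched for letters bound by factors known to act on respiratory genes. A promoter from RefSeq (GRCm38.p6, 250 bases before to 50 after the start of the gene) was listed for 77 of the 93. The NRF-1 letters, GCGCA and GCGC with 1 base of any kind between them, occurred, on either strand, in 19 of 77 genes (24.7%) and in 7.04% of all 18458 genes with a listed promoter. The YY1 letters AAGATGGCG occurred in 8 (10.4%, against 2.11%) and the GABPA letters CCGGAAGT in 5 (6.49%, against 5.60%). The ends of the NRF-1 and YY1 letters can overlap by GCG. At least 1 motif was held by 30 members (39.0%, against 13.6%). A match describes the sequence and is not evidence of binding. For each motif the member of highest level that holds it before its start is shown, minus strand in each case, with the motif in capitals: Cox6a1 at chr5:115349081-115349150, Uqcrh at chr4:116075071-116075111 (GABPA letters on the opposite strand) and Atp5j, a stalk subunit of ATP synthase, at chr16:84835026-84835094.
Cox6a1, NRF-1 letters: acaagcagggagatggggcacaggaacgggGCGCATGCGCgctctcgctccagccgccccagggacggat
Uqcrh, GABPA letters: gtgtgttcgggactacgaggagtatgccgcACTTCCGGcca
Atp5j, YY1 letters: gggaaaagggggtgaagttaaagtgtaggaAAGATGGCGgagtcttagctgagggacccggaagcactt
Of the nuclear members higher in luminal cells by the fold, Sdha holds the NRF-1 and Ndufs3 the GABPA letters. The others, Atp5d, Uqcrfs1, Ndufv3, Ndufab1, Ndufaf1, Ndufaf3 and Cox7a1, have a listed promoter and hold none of these letters. Of those higher in basal cells by the fold, Ndufa11 holds the NRF-1 letters and Cox6b2 holds none. A link between motif and direction was not tested.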

How the data were processed

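The authors aligned read pairs of 186 single cells to mm10 with Subread and used featureCounts with the RefSeq genes built into it. The raw counts per gene (called reads here) are what they deposited. Versions, use of strand and treatment of multiply matching reads are not given in the sources used here. The table of the whole series equals the files per cell and was not used. Of 27179 identifiers, 25275 matched a symbol in RefSeq GRCm38.p6, and the others held 1.94% of counts. Mitochondrial genes were named by their start in GENCODE M21.

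CPM (per 1000000 reads) were computed from the counts on reads without the 15 mitochondrial and 124 ribosomal protein genes. The study's thresholds were applied on those reads: 50000 reads and 1000 genes for basal and 100000 reads and 1500 genes for luminal cells. Doublets were not called, because captured cells were viewed under a microscope before cDNA was made. Counts were summed per group, and log2 ratios take 1 CPM added. "Past the fold" means a log2 ratio of at least 1 in size. Poisson intervals (95%) cover counting error only, since PCR reads carry no molecular identifiers. The ratio step was run on simulated counts with known folds, and the outcome is not given here. Scaling alternatives used edgeR 4.0.16, and other steps Python 3.11.15 and scipy 1.17.1.

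The members and lists were chosen with earlier results of these data known. Named genes are all mitochondrial members, the 3 nuclear members of highest CPM per kb in each complex, nuclear members past the fold with at least 10 CPM and the same direction on plate B, tissue-type copies, Cox4i1, Cyc1, Cycs, and the 2 genes of largest ratio per other list with at least 10 CPM and the same direction on plate B, past the fold or not.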

Additional observations from a re-analysis of the deposited data

Results flagged for a closer look

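Rows that the definition of members leaves out as pseudogenes held reads. Ndufs5-ps had 21538 reads over all 186 cells, Ndufs6b 5776, Ndufa11b 1838, Atp5c1-ps 1593 and Uqcrh-ps1 1251, each above the limit that a count of 0 allows (3 reads). Ndufs5-ps was found in 123 cells and held 7811 reads in basal and 13727 in luminal cells, where its parent Ndufs5 had 608 reads in all.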

How the results depend on the processing

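A value counted as stable when it moved by no more than the gap between its plates, and a count when it stayed within 1.5 times. Of the main results under each alternative, 109 were stable and 21 moved, and of the single genes 449 were stable, 23 moved and 1 reversed. Stable does not mean that a direction held. The gap between plates was wide, with a median log2 ratio of 1.06 over nuclear members for basal plate A over B. The 1 reversal counted is Cox6b2, and the sign changes of mitochondrial members given above for other scalings and for the mean of CPM per cell are not in that count. The alternatives with plate C over plate A, plate A or C alone, plate B for the rRNA share, and without cells that hold markers of other cell types were chosen after seeing the data. With summed reads, the luminal mitochondrial share was 11.0% and the luminal rRNA share 19.2%. With all cells the luminal rRNA share was 20.8% and, over cells of at least 1000 reads, the luminal nuclear level 13269 CPM. On a denominator of all counts that level was 12138 CPM. Without cells that hold markers of other types it was 15066 CPM and the luminal rRNA share 20.4%. Without thinning, 78 nuclear members were detected in luminal cells, and 41 with 5 reads as detection. Mitochondrial members higher in luminal cells by the fold were 1 with either TMM or median-of-ratios factors, 2 with no filter on cells, 14 on plate B and 1 for plate C over plate A. Nuclear members higher in luminal cells were 5 with 10 CPM added and 45 on plate B. Those higher in basal cells were 1 with the mean of CPM per cell, 1 with 10 CPM added, 4 with either of these factors and 5 for plate C over plate A. Cox6b2 reversed on plate B (log2 ratio 2.47, with 0 reads in basal cells, so the value depends on the CPM added). The median log2 ratio of all genes was 0.18, against 0.03 with TMM and 0.01 with the other factors. The cause of these shifts was not tested.

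No paired analysis was possible because cell numbers in the labels only name cells and no test was made. With 1 sample per population and no mouse named for a cell, differences between mice and populations cannot be told apart on any plate. Plates A and C hold 1 population each, so there the plate cannot be told apart from them either.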
